A study of Mus musculus with 96 samples.

Results

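The livers of mice 25 to 40 make up 16 of the 96 RNA-seq libraries of the series and were chosen by library name and label. All 16 came from female mice, 8 fed ad libitum (AL, mice 25 to 32) and 8 on intermittent fasting (IF, mice 33 to 40), with 1 library per mouse. The series pairs daily fasting with free feeding and holds libraries of liver, muscle and brain cortex from both sexes. Its design text describes 16 h of fasting and 8 h of feeding a day for 4 months, but it speaks of male mice, and the labels of the female livers give tissue, sex and diet alone. The strain, age, feeding hours and hour of tissue collection of the female mice are therefore not given in the sources used here. Both groups share the same preparation, with messenger RNA taken by its poly-A tail and made into directional libraries. Total gene counts ran from 29779699 to 41530063 in AL livers and from 26693099 to 37906982 in IF livers.

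The liver carries an animal through a fast by releasing glucose, first from glycogen and then by gluconeogenesis, and by oxidising fatty acids to ketone bodies under the nuclear receptor PPARα. Feeding has the opposite program, in which insulin and the SREBP factors drive fatty acid and cholesterol synthesis. Meal times also set the phase of the liver's circadian clock, so the levels of clock genes depend on both the diet and the hour at which tissue is taken.

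The labels were checked against marker genes. Xist, the RNA that coats the inactive X chromosome, lay from 673 to 1573 CPM in AL livers (median 939) and from 627 to 1313 CPM in IF livers (median 824), where CPM are a gene's counts scaled to the effective size of its library. The 4 Y-linked genes Ddx3y, Eif2s3y, Kdm5d and Uty had 0 counts in all 16 libraries. The summed level of 8 hepatocyte markers, of which Alb was the most abundant, ran from 43799 to 79010.3 CPM in AL livers (median 75865) and from 62070.3 to 104304 CPM in IF livers (median 77586). Among pancreatic acinar markers, Prss2, Cpa1, Pnlip and Cela3b had 0 counts in all 16 libraries, and among skeletal muscle markers Tnnc2 and Myh4 had 0 counts. Other members of these lists were detected, Cela1 from 4.82 to 16.2 CPM in AL livers (median 12.4) and from 5.57 to 20.1 CPM in IF livers (median 10.3) and Mylpf from 0.882 to 2.52 CPM in AL livers (median 2.06) and from 1 to 2.38 CPM in IF livers (median 1.74). Xist, the Y-linked genes and Alb match the labelled sex and tissue in all 16 libraries, and AL mouse 31 also held adipocyte transcripts.

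Some livers stood apart in single genes. AL mouse 28 had the highest Saa1, Saa2 and Lcn2, genes of the acute phase, and the lowest Per1, Cry2, Scd1, Hmgcs1, Insig1 and Cyp2b13 of its group. IF mouse 34 was lowest of its group in several Mup genes and in Cyp2b9, Cyp2b13 and Cux2 and highest of all 16 in Ighm, an antibody gene of B cells, at 216 CPM against at most 68.8 CPM elsewhere. IF mouse 37 was highest in Alas1, at 1986 CPM, and Nampt. AL mouse 26 had the largest share of mitochondrial counts, 23.8%. AL mouse 31 had 49 counts of Adipoq, 239 of Cfd, 44 of Retn and 68 of Plin1, genes of adipocytes, while no other liver had more than 2, 19, 4 and 4. Leaving out each of these mice gave 0 called genes by edgeR, with 812 genes without mouse 26 and 969 without mouse 31 at an unadjusted p under 0.05, and 971 without mouse 28, 1008 without mouse 34 and 1036 without mouse 37, against 919 with all 16 livers.

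No gene met the threshold for a difference between IF and AL in female liver. The edgeR quasi-likelihood test took in 15938 genes, of which 0 (0%) had an adjusted p under 0.05, and the smallest adjusted p was 0.504. At an unadjusted p under 0.05 there were 919 genes, 5.77% of those tested, 420 with a higher estimate in IF and 499 with a lower one. DESeq2 called 8 genes, 6 higher and 2 lower in IF, and limma-voom with sample weights called 0, with 1379 genes at an unadjusted p under 0.05. The level of 4 genes (0.0251% of those tested) did not overlap between the diets.

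The test also bounds what could have been missed. For 12372 genes (77.6%) the 95% interval of the log2 fold change, IF over AL, lay inside -1 to 1, so that a 2-fold change in either direction was outside it. These intervals are per gene and not adjusted for the number of genes. The median interval reached 0.38 to either side of its estimate, and the median absolute log2 fold change was 0.15. Genes with larger spread between mice keep wider intervals, and for those a 2-fold difference in 1 or both directions lay inside the interval.

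**Figure D1:**
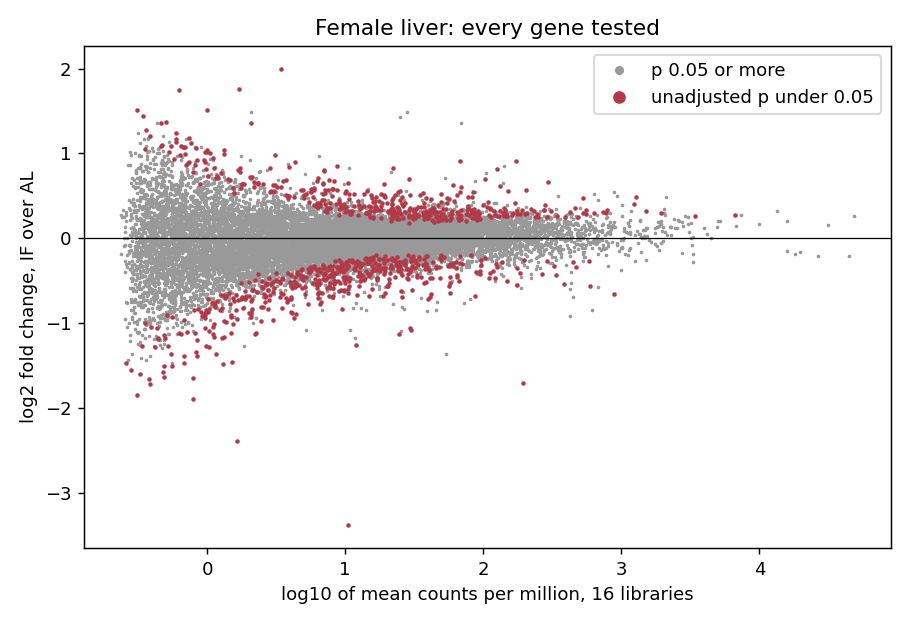
Log2 fold change of IF over AL (vertical axis) against the mean CPM on a log10 scale over the 16 libraries (horizontal axis) for each of the 15938 genes tested in female liver. Red points are the 919 genes with an unadjusted p under 0.05, and no gene passed after adjustment.

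No separation of the diets was detectable over whole profiles. The diets accounted for 7.34% of the variation in log2 CPM among the 16 livers, against a median of 6.47% over all 12870 ways of assigning 16 libraries to 8 and 8 (exact permutation test, one-sided, p = 0.204). IF livers lay on average 71.3 from the centre of their group and AL livers 65.6, a difference of 5.79 in Euclidean distance on log2 CPM (exact permutation test, two-sided, p = 0.165). With the 500 most variable genes the difference was 4.24 and its p was 0.0274 by the same exact test, and with a prior count of 0.5 it was 9.74 with p = 0.0423, so the difference in spread passed the threshold under these settings and not under the main one. On linear CPM it was -57.7 with an exact p of 0.993.

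The genes with the smallest p were chosen after their values were seen and are given as description. Rnaseh2a, a subunit of the ribonuclease that removes RNA from DNA hybrids (chromosome 8, 85683239 to 85696396, - strand, GRCm39), lay from 19.8 to 27.9 CPM in AL livers (median 24.3) and from 29.2 to 38.7 CPM in IF livers (median 35.8). Every IF liver was above every AL liver, and the log2 fold change was 0.51 (95% interval 0.31 to 0.72). The other genes without overlap were the ribosomal protein pseudogenes Rpl17-ps3 and Rpl28-ps1, both higher in IF, and Iqce, lower in IF, whose AL livers lay between 11.3 and 13.2 CPM and whose IF livers lay between 8.50 and 10.98 CPM. Processed pseudogenes share sequence with their parent gene, so their counts are uncertain, and Rnaseh2a overlaps other annotated genes, which makes its counts uncertain too where reads were not assigned by strand. Zbtb16, a transcription factor induced by glucocorticoids, had the largest log2 fold change among the 10 smallest p values, 1.35 (95% interval 0.67 to 2.04), at 0.611 to 1.82 CPM in AL and 1.13 to 5.97 CPM in IF livers. The 8 genes that DESeq2 called were Rnaseh2a, Rpl17-ps3, Larp4b, Vasn, the lncRNA genes ENSMUSG00000120149 and ENSMUSG00000120623, and, lower in IF, Sult2a-ps1 and Gm14091. The last pair did not pass the expression filter of the main test, with at most 0.358 and 0.915 CPM in any AL liver. Adjusted p values by DESeq2 ran from 0.00601 for Rnaseh2a and Sult2a-ps1 to 0.0436, and by edgeR the same 6 higher genes had adjusted p values from 0.504 to 0.785.

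The circadian clock was the first gene group examined. Clock proteins form a loop in which Arntl and Clock activate the Per and Cry repressors, while Nr1d1 represses Arntl and Dbp and Tef carry the rhythm to output genes. Dbp lay from 185 to 287 CPM in AL livers (median 229) and from 205 to 317 CPM in IF livers (median 253). The groups overlapped, and the log2 fold change was 0.093 (95% interval -0.15 to 0.34; 0.034 without IF mouse 33 to 0.14 without AL mouse 26), an interval inside a 2-fold change. Per1 lay from 18.6 to 108 CPM in AL livers (median 71.6) and from 76.5 to 154 CPM in IF livers (median 94.7), with AL mouse 28 lowest, and its log2 fold change was 0.55 (95% interval -0.010 to 1.10). Nr1d1 lay from 126 to 227 CPM in AL livers (median 168) and from 75.6 to 201 CPM in IF livers (median 126), again with overlap, and its estimate was -0.31 (95% interval -0.65 to 0.032). Usp2, a deubiquitinase gene driven by the clock whose locus overlaps other genes, had a log2 fold change of 0.55 (95% interval 0.0087 to 1.09) and Cry1 one of 0.57 (95% interval 0.16 to 0.99). Arntl was low in both diets, at no more than 1.88 CPM in AL and 1.60 CPM in IF livers, with a log2 fold change of -0.75 (95% interval -1.65 to 0.15), and Clock had -0.17 (95% interval -0.52 to 0.19; -0.29 without IF mouse 36 to -0.098 without IF mouse 40). Both activators lay below 0, with all libraries and with any 1 left out, and 0 of 2 had an unadjusted p under 0.05. All 6 repressor genes had estimates above 0, where 48.1% of all genes did, and 4 of 6 did without AL mouse 28, AL mouse 29 or IF mouse 37, with Per2 and Per3 below 0. Their median was 0.29 (from 0.20 to 0.43 with 1 library left out, lowest without mouse 28), and 1 of 6 had an unadjusted p under 0.05, beside 5.77% of all genes. Among 7 output factors 3 did so, with Usp2 higher in IF and Nfil3 and Bhlhe41 lower. None passed after adjustment.

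**Figure D2:**
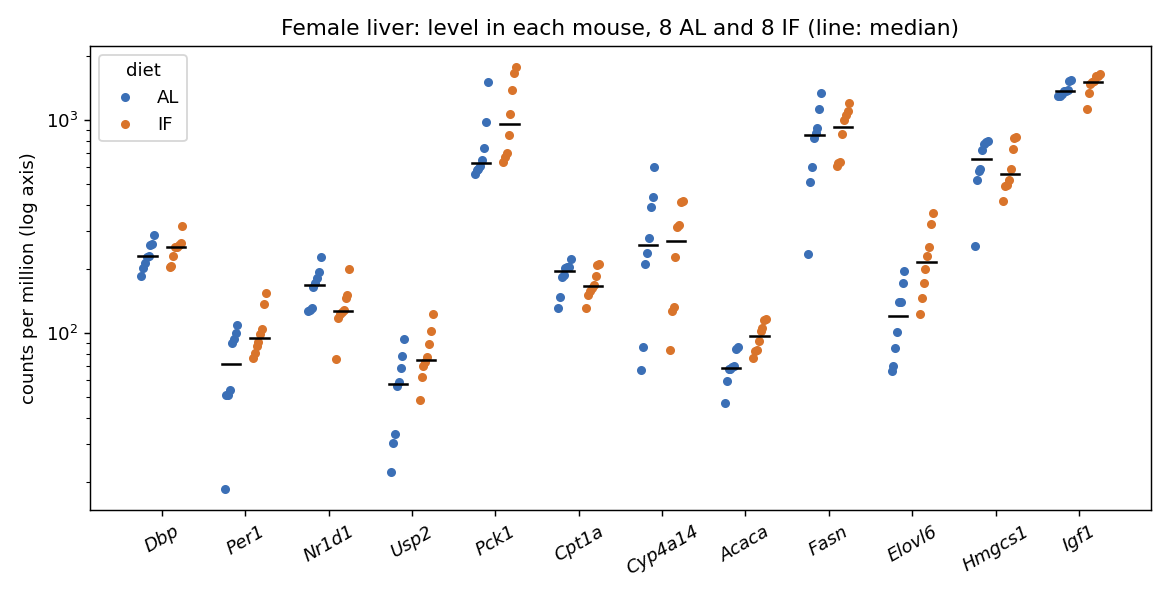
Level of 12 genes in each female liver, in CPM on a log axis, with AL mice in blue, IF mice in orange and the median of each group of 8 as a line. The diets overlap for every gene shown, and for Dbp all 16 livers lie between 185 and 317 CPM.

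Genes of glucose production and storage overlapped between the diets. Pck1, which encodes the committed enzyme of gluconeogenesis, lay from 559 to 1511 CPM in AL livers (median 626) and from 633 to 1772 CPM in IF livers (median 956). The groups overlapped over most of their range, and the log2 fold change was 0.50 (95% interval -0.024 to 1.01). G6pc, whose product releases free glucose, had a log2 fold change of -0.27 (95% interval -1.27 to 0.73; -0.41 without IF mouse 33 to 0.41 without AL mouse 29), a wide interval in which AL mouse 29 stood alone at 317 CPM. Without mouse 29 the estimate lay on the other side of 0, and with limma-voom it was 0.0063. Of 12 gluconeogenesis genes 1 had an unadjusted p under 0.05, the glucose 6-phosphate transporter Slc37a4 with 0.36 (95% interval 0.15 to 0.56), and the median of the list was -0.025 (from -0.091 to 0.069 with 1 library left out) against -0.0095 over all genes. In glycolysis and glucose uptake 3 of 16 genes had an unadjusted p under 0.05, beside 5.77% of all genes, Gpi1, Khk and Pfkfb3, each with a higher estimate in IF. Ppp1r3g, a subunit that directs protein phosphatase to glycogen, ranged from 0.18 to 11.2 CPM in AL livers (median 2.91) and from 1.05 to 13.2 CPM in IF livers (median 4.63), a spread so wide that its interval ran from -0.65 to 2.15.

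Fatty acid oxidation genes did not differ detectably between the diets. All 21 genes tested had intervals inside -1 to 1, where 77.6% of all genes did. Of these 21 genes 0 had an unadjusted p under 0.05, beside 5.77% of all genes, so that count does not set the list apart. The list's median was -0.019 (from -0.093 to 0.040 with 1 library left out). Cpt1a, which admits long-chain fatty acids to mitochondria, lay from 130.3 to 222 CPM in AL livers (median 194) and from 131 to 212 CPM in IF livers (median 166). Its log2 fold change was -0.10 (95% interval -0.37 to 0.16; -0.16 without AL mouse 31 to -0.053 without IF mouse 34). All 7 genes of ketone body metabolism also had intervals inside a 2-fold change, and none had an unadjusted p under 0.05. The shares over all genes were 77.6% and 5.77%, and nothing is read from so short a list. Among 27 PPARα targets and lipid droplet genes none had an unadjusted p under 0.05, beside 5.77% of all genes, and 20 of 27 had intervals inside a 2-fold change. Cyp4a14, a fatty acid hydroxylase and classical PPARα target, lay from 66.7 to 601 CPM in AL livers (median 259) and from 83.3 to 417 CPM in IF livers (median 270.1). Here the range within each diet exceeded 5-fold, and the interval of -0.18 (95% interval -1.12 to 0.75; -0.33 without AL mouse 26 to 0.058 without AL mouse 29) includes changes of 2-fold downward. The Cyp4a genes are close paralogs whose counts may be split between copies. Angptl4, an inhibitor of lipoprotein lipase, and Pdk4, a kinase that blocks pyruvate oxidation, had log2 fold changes of 0.31 (95% interval -0.32 to 0.95; 0.19 without AL mouse 27 to 0.47 without AL mouse 29) and -0.24 (95% interval -0.95 to 0.48; -0.48 without IF mouse 40 to -0.075 without AL mouse 29), and limma-voom gave -0.52 for Pdk4.

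Fatty acid synthesis genes lay on both sides of 0, with 15 of 22 estimates above it and 7 below, and 48.1% of all genes above it. Of 22 genes 4 had an unadjusted p under 0.05, all above 0, beside 5.77% of all genes, and the list's median log2 fold change was 0.23. Elovl6, an elongase of palmitate, lay from 66.3 to 195 CPM in AL livers (median 121) and from 122 to 366 CPM in IF livers (median 215). The diets overlapped, and the log2 fold change was 0.90 (95% interval 0.39 to 1.42). Acaca, the acetyl-CoA carboxylase that commits carbon to fat, lay from 46.9 to 86.2 CPM in AL livers (median 68.4) and from 75.9 to 116 CPM in IF livers (median 97.2), with an estimate of 0.49 (95% interval 0.22 to 0.75). Lpin1, a phosphatidate phosphatase, had 0.91 (95% interval 0.39 to 1.43) and the citrate carrier Slc25a1 had 0.32 (95% interval 0.059 to 0.57). After adjustment over all genes by edgeR the smallest adjusted p among these was 0.785, so none was called. Fasn, the fatty acid synthase, lay from 234 to 1336 CPM in AL livers (median 846) and from 608 to 1207 CPM in IF livers (median 929). Srebf1, the transcription factor above this pathway, had a log2 fold change of -0.055 (95% interval -0.50 to 0.39; -0.18 without AL mouse 28 to 0.12 without AL mouse 31).

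Cholesterol synthesis did not differ detectably. All 22 genes had intervals inside a 2-fold change, where 77.6% of all genes did, and 0 had an unadjusted p under 0.05, beside 5.77%. The list's median was 0.042, and with 1 library left out it ran from -0.049 without AL mouse 28 to 0.12 without AL mouse 27. Hmgcs1, which makes the HMG-CoA that feeds the sterol pathway, lay from 257 to 795 CPM in AL livers (median 655) and from 417 to 829 CPM in IF livers (median 556). AL mouse 28 stood lowest, and the log2 fold change was -0.038 (95% interval -0.45 to 0.37; -0.16 without AL mouse 28 to 0.026 without IF mouse 38). Bile acid genes had a median of -0.14 (from -0.19 to -0.088 with 1 library left out, nearest 0 without IF mouse 34), with 3 of 21 at an unadjusted p under 0.05, beside 5.77% of all genes. Nr0b2, the receptor SHP that represses bile acid synthesis, lay from 26.3 to 74.4 CPM in AL livers (median 40.9) and from 41.5 to 105 CPM in IF livers (median 70.9), with a log2 fold change of 0.62 (95% interval 0.17 to 1.08), while Cyp7a1, the rate-limiting enzyme of bile acid synthesis, had 0.13 (95% interval -0.48 to 0.74; 0.0051 without AL mouse 29 to 0.26 without AL mouse 28). The transporters Abcc2 and Slco1b2 had -0.28 (95% interval -0.56 to -0.0055) and -0.34 (95% interval -0.63 to -0.042).

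Amino acid and stress genes were examined next. The 8 urea cycle genes all had intervals inside a 2-fold change, where 77.6% of all genes did, and 0 had an unadjusted p under 0.05. In amino acid catabolism 5 of 40 genes had an unadjusted p under 0.05, beside 5.77% of all genes, with Oat, Cth, Agxt2 and Afmid lower and Sdsl higher in IF. The endoplasmic reticulum chaperones had higher estimates in IF for 22 of 23 genes, where 48.1% of all genes did, and 4 of 23 reached an unadjusted p under 0.05. Their median of 0.17 was 0.063 without AL mouse 26, 0.11 without IF mouse 34 and 0.094 with limma-voom. The genes at that threshold were Dnajb9 at 0.56 (95% interval 0.17 to 0.95), Manf at 0.60 (95% interval 0.094 to 1.11), Hyou1 and Herpud1. Hspa5, the chaperone BiP that senses unfolded protein, had 0.12 (95% interval -0.24 to 0.48; 0.032 without AL mouse 26 to 0.19 without IF mouse 33). Among 23 genes of the integrated stress response and 23 NRF2 targets 0 had an unadjusted p under 0.05. Glucocorticoid-induced genes gave 3 of 15, Zbtb16 and Fkbp5 with higher and Klf9 with lower estimates in IF. Fkbp5, a co-chaperone of the glucocorticoid receptor, lay from 26.2 to 61.0 CPM in AL livers (median 51.0) and from 43.6 to 88.6 CPM in IF livers (median 62.8).

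Ribosomal and respiratory genes had small estimates that moved with single libraries. Of 73 cytosolic ribosomal protein genes 64 had estimates above 0, with 0.13 as the median log2 fold change, and of 42 nuclear genes of the respiratory chain 39 did so, with a median of 0.15. Over all genes 48.1% of estimates lay above 0. The 13 respiratory genes of the mitochondrial genome had a median of -0.21 and 11 below 0. Without AL mouse 26, which had the largest mitochondrial share, the medians were 0.057 for the ribosomal list, 0.072 for the nuclear and -0.068 for the mitochondrial respiratory genes, and 52 and 29 of the nuclear-encoded genes lay above 0, against 49.0% of all genes in that fit. With 1 library left out the medians ran from 0.057 to 0.18, 0.072 to 0.20 and -0.31 to -0.068, nearest 0 without mouse 26. Without AL mouse 31 the ribosomal and nuclear respiratory medians were 0.082 and 0.090, and without IF mouse 39 they were 0.070 and 0.095. The mitochondrial median was -0.12, -0.13 and -0.13 without IF mice 38, 39 and 40. With limma-voom the 3 medians were 0.043, 0.065 and -0.073. Genes within such a list share their source libraries and are not independent. An unadjusted p under 0.05 was reached by 5 of the ribosomal and 1 of the nuclear respiratory genes, beside 5.77% of all genes. It was also reached by 1 of the 13 mitochondrial respiratory genes, lower in IF. Mitochondrial transcripts took 8.34% to 23.8% of counts in AL livers and 8.12% to 18.7% in IF livers, and the part of this share in the lists' medians was not tested.

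Hormone and acute phase genes differed widely in their spread between mice. Igf1, the growth factor the liver secretes under growth hormone, lay from 1294 to 1542 CPM in AL livers (median 1369) and from 1128 to 1644 CPM in IF livers (median 1512). It was among the steadiest genes named here, with an SD of 0.14 log2 CPM within diets, and its log2 fold change was 0.092 (95% interval -0.13 to 0.32; 0.068 without IF mouse 37 to 0.14 without IF mouse 34). Fgf21, a hormone released by the fasted liver, lay from 0.166 to 7.92 CPM in AL livers (median 2.81) and from 1.04 to 9.31 CPM in IF livers (median 3.87), with an SD of 1.39 log2 CPM within diets. Saa1, an acute phase protein, lay from 8.36 to 232 CPM in AL livers (median 16.5) and from 8.39 to 86.2 CPM in IF livers (median 22.9). AL mouse 28 was the high value, and it was also highest for Lcn2, at 84.2 CPM. Of 23 acute phase genes 0 had an unadjusted p under 0.05, beside 5.77% of all genes, and in the iron list 1 of 15 did so, the iron exporter Slc40a1 with -0.31 (95% interval -0.62 to -0.012). Hamp, which encodes the iron hormone hepcidin, had -0.0018 (95% interval -0.49 to 0.49; -0.16 without IF mouse 35 to 0.11 without IF mouse 38). Saa1 and Saa2 are near-identical copies, so the split of counts between them is uncertain.

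Sex-biased liver genes overlapped between the diets. Cyp2b9 and Cyp2b13, female-specific cytochromes with near-identical sequence, had log2 fold changes of 0.041 (95% interval -0.23 to 0.31; -0.00012 without IF mouse 38 to 0.12 without IF mouse 34) and -0.069 (95% interval -0.68 to 0.54; -0.22 without AL mouse 28 to 0.095 without AL mouse 27). Cux2, a transcription factor of female liver, lay from 32.5 to 143 CPM in AL livers (median 105) and from 16.1 to 344 CPM in IF livers (median 167). Its log2 fold change was 0.85 (0.66 without IF mouse 35 to 1.04 without IF mouse 34), and limma-voom gave 1.06. That was the largest estimate among the female-biased genes, which ran from -0.75 to 0.85. IF mouse 34 was the low value for Cux2 and Cyp2b9. For Cyp2b13 AL mouse 28 was lowest, at 67.4 CPM, and IF mouse 34 next, at 120.4 CPM. Of 34 female-biased genes 2 and of 35 male-biased genes 5 had an unadjusted p under 0.05, beside 5.77% of all genes. Among the female-biased ones 1 was higher and 1 lower in IF, and among the male-biased ones 3 were higher and 2 lower. Por, the reductase that supplies electrons to all microsomal cytochromes P450, lay from 394 to 644 CPM in AL livers (median 497) and from 371 to 707 CPM in IF livers (median 545), with a log2 fold change of 0.13 (95% interval -0.16 to 0.42; 0.067 without IF mouse 40 to 0.20 without IF mouse 34). Nampt, the rate-limiting enzyme of NAD salvage, had 0.34 (95% interval 0.046 to 0.63; 0.22 without IF mouse 37 to 0.41 without AL mouse 31).

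Protein synthesis and turnover were examined as well. Of the cytosolic aminoacyl-tRNA synthetases, which charge tRNAs for translation, 4 of 20 had an unadjusted p under 0.05, Sars, Yars, Vars and Mars1, beside 5.77% of all genes, and each was above 0, with Yars at 0.36 (95% interval 0.14 to 0.58). In the autophagy and lysosome list it was 0 of 37, and in the proteasome list 1 of 31, Psmc6. Every proteasome interval lay inside a 2-fold change, where 77.6% of all genes did. Among heat shock genes 1 of 15 reached that threshold, the cytosolic chaperone Hspa8 with 0.40 (95% interval 0.14 to 0.66). In the growth hormone and IGF list it was 1 of 15, the feedback inhibitor Socs3 with -0.68 (95% interval -1.12 to -0.24), and in the insulin and FoxO list 1 of 19, Trib1 with -0.34 (95% interval -0.59 to -0.078). Fetub, a secreted protease inhibitor, was the 1 of 18 among hepatokines, and Apoc3, an inhibitor of triglyceride clearance, the 1 of 13 among apolipoprotein genes. Among the drug-metabolising cytochrome P450 genes 1 of 27 did so, Cyp2a22, and of the cell cycle genes 1 of 25, the cyclin gene Ccne1. No gene of any list was called by edgeR after adjustment.

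Levels between genes were compared per transcript length. In AL livers the gene with the highest mean was the mitochondrial mt-Co1, at 60265 ± 21461 TPM in AL and 51015 ± 20972 TPM in IF livers (mean ± SD, n = 8 each). Apoa2, an apolipoprotein of high-density lipoprotein, had 53534 ± 10491 TPM in AL and 60079 ± 10088 TPM in IF livers and lay above mt-Co1 in the latter, and Alb, which encodes serum albumin, had 36627 ± 7536 TPM in AL and 42796 ± 10835 TPM in IF livers. The other genes among the 10 highest in AL livers were mt-Cytb, mt-Nd1, mt-Nd2, mt-Nd4, Apoe, Apoc1 and Apoa1, and their intervals all lay inside a 2-fold change. These genes encode respiratory subunits and secreted plasma proteins.

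Mup genes, which encode major urinary proteins, were among the genes with the largest spread between mice, and single mice carried much of it. The within-diet SD had a median of 0.38 log2 CPM over all genes, with 0.20 at the 10th and 0.98 at the 90th percentile. Of the 10 genes with the largest SD at a mean of at least 10 CPM, 7 belonged to the Mup cluster on chromosome 4, whose copies are nearly identical and whose counts are therefore uncertain. Without IF mouse 34, left out in turn like each library after the data were seen, the count was 4 of 10, and without any other single mouse it lay between 6 and 8. Mouse 34 had 0.0615 CPM of Mup-ps14, where the other IF livers had 15.1 to 27.3 CPM, and the SD of Mup-ps14 was 1.90 log2 CPM with mouse 34 and 0.56 without it. For Mup12 these SDs were 2.03 and 0.83, for Mup15 1.96 and 1.04, and for Mup-ps10 1.73 and 0.85. Mup14 stood at 251 CPM in IF mouse 37 and at no more than 41.5 CPM elsewhere. Mup19 ranged from 12.4 to 1499 CPM in AL livers (median 721) and from 0.462 to 2114 CPM in IF livers (median 647), and Mup22 ranged from 6.92 to 1156 CPM in AL livers (median 583) and from 93.7 to 467 CPM in IF livers (median 306). The remaining members were Slc15a2, a peptide transporter, Chrna4, a nicotinic receptor subunit, and Gapdh. Gapdh, a glycolytic enzyme often used as a reference gene, ranged from 20.6 to 427 CPM in AL livers (median 107) and from 19.8 to 519 CPM in IF livers (median 223), with an SD of 1.78 log2 CPM. Gapdh has many processed pseudogenes, so its counts are uncertain too. Mup10 was carried by 1 mouse, with AL mouse 31 at 130.3 CPM and the other 15 livers at or below 5.24 CPM.

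No difference in the markers of other cell types was detectable between the diets. Fewer cells of a type and less RNA per cell cannot be told apart in such libraries. The summed level of 5 erythrocyte genes, led by Hba-a1, ran from 111 to 1106 CPM in AL livers (median 527) and from 279 to 1042 CPM in IF livers (median 515), and the mean log2 CPM of the list differed by 0.012 (exact permutation test, two-sided, adjusted p = 1 over 13 lists). With 1 library left out that difference ran from -0.25 without AL mouse 28 to 0.20 without AL mouse 29, and 2 of the 5 genes had estimates above 0, with a median of -0.36. The summed level of 10 Kupffer cell and macrophage genes, led by Clec4f, ran from 293 to 1400.3 CPM in AL livers (median 361) and from 236 to 664 CPM in IF livers (median 428), with AL mouse 28 highest. Its mean log2 CPM differed by -0.27, and with 1 library left out it ran from -0.42 without IF mouse 34 to -0.010 without AL mouse 28. All 10 genes had estimates below 0 with every mouse in the fit, and 6 of the 10 were above 0 without mouse 28. Over the 13 lists the smallest adjusted p was 0.901, for adipocyte genes, whose summed level ran from 2.77 to 27.6 CPM in AL livers (median 5.76) and from 1.01 to 10.9 CPM in IF livers (median 3.80). AL mouse 31 was the high value, and the difference in mean log2 CPM was -0.63 with it and -0.16 without it. IF mouse 34 was the high value for lymphocyte genes, whose summed level ran from 42.5 to 88.5 CPM in AL livers (median 68.6) and from 41.4 to 267 CPM in IF livers (median 50.8), and for Marco of the macrophage list it had 124 CPM, against at most 11.2 CPM in the other IF livers and 112 CPM in AL mouse 28. Of the 10 lymphocyte genes 8 had estimates above 0 with all mice and 3 without mouse 34, with medians of 0.17 and -0.15, and the difference in mean log2 CPM was -0.12 and -0.35. That of neutrophil genes was -0.045, and 0.22 without mouse 28. Neither these nor the endothelial, stellate and cholangiocyte lists passed the threshold. Of 8 endothelial genes 7 had estimates below 0 and 1 above, with a median of -0.19. The endothelial difference in mean log2 CPM was -0.22, from -0.31 without IF mouse 34 to -0.10 without IF mouse 35.

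The response was then set against that of male livers, 8 AL and 8 IF (mice 1 to 16). In the male livers on their own 7234 of 16204 genes (44.6%) had an adjusted p under 0.05 by edgeR. Whether the response differed by sex was tested in 1 fit over the 32 livers, and of 17658 genes 4184 (23.7%) had an adjusted p under 0.05 for the interaction, 2265 with the female response above the male one and 1919 with it below. The fit holds sex together with anything else that differed between the 2 cohorts of mice, such as the hour of collection, and these cannot be told apart. The same female mice gave 1 called gene of 15308 in muscle (0.00653%) and 2 of 18403 in cortex (0.0109%), and the difference between tissues was not tested. Chosen after their values were seen, these were the ribosomal RNA gene Rn18s-rs5 in muscle and mt-Atp6 and Gm11263 in cortex.

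The genes with the smallest interaction p were chosen after their values were seen. Usp2 had a log2 fold change of 4.93 in males and 0.55 in females, a difference, female minus male, of -4.38 (95% interval -5.05 to -3.71), with an adjusted p of 1.09e-10 by edgeR. Por gave 2.91 in males and 0.13 in females, a difference of -2.78 (95% interval -3.19 to -2.36). Hmgcs1 gave -2.99 and -0.036, a difference of 2.95 (95% interval 2.41 to 3.49), so a response of the male size lay outside the female interval given above. Pter, a gene for an amidase of N-acetyltaurine, had the smallest interaction p, with -2.37 in males, 0.0040 in females and an adjusted p of 3.61e-12 by edgeR. On the library scaling of the fit over 32 livers C9, the terminal complement component, stood at a mean of 274 CPM in male AL and 79.6 CPM in male IF livers, against 67.1 and 98.0 CPM in the female groups. The other genes of the 10 with the smallest interaction p were Gm4756, Ctsf, Ces1d, Gnl1 and Slc33a1.

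**Figure D3:**
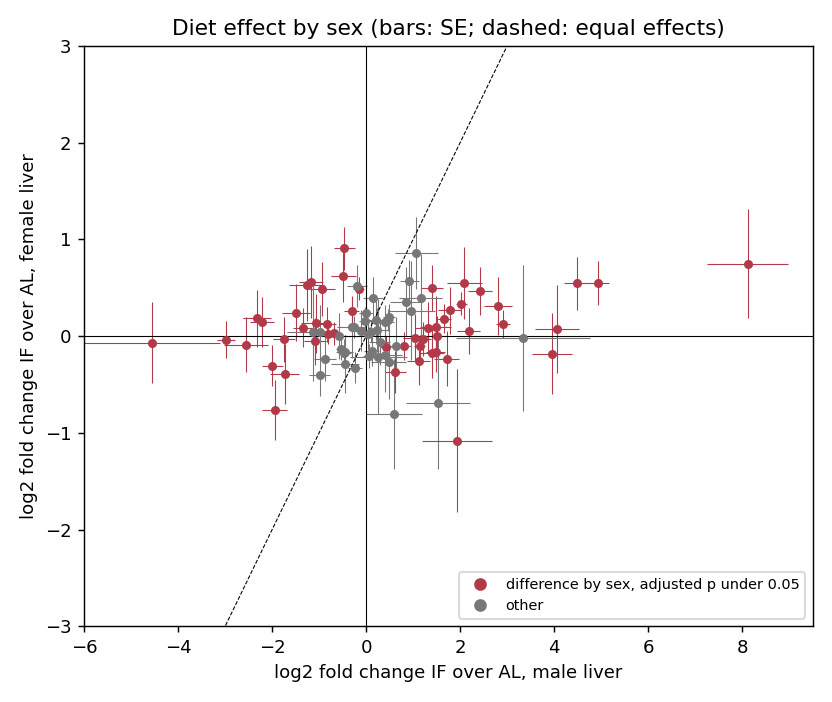
Log2 fold change of IF over AL in male liver (horizontal axis) and female liver (vertical axis) for key genes of the lists, from 1 fit over 32 livers, with bars of 1 SE and a dashed line of equal effects. Red points have an adjusted p under 0.05 for the difference by sex, and Usp2 lies at 4.93 in males and 0.55 in females.

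By gene group, read beside 23.7% of all genes, the response differed by sex for 13 of 21 fatty acid oxidation genes, all with the female response below the male one, among them Cpt1a with 1.14 in males and -0.10 in females. It differed for 14 of 22 cholesterol synthesis genes, 13 of them above the male response, with medians of -1.01 in males and 0.044 in females, and for 18 of 23 endoplasmic reticulum chaperones, with -0.78 and 0.17. In the ribosomal protein list 34 of 73 differed, all with the female response below the male one. Ketone body genes gave 2 of 7 and the cell cycle list 3 of 25. Markers of other cell types also differed by sex, for 4 of 8 endothelial, 3 of 6 cholangiocyte and 2 of 5 erythrocyte genes. Their male medians were 0.61, 1.25 and 1.68 and their female ones -0.19, 0.21 and -0.37. Kupffer cell and macrophage genes gave 0 of 10, stellate and fibroblast genes 1 of 8 and lymphocyte genes 1 of 10. The part of cell content in the pathway counts was not tested.

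Levels showed where the female livers stood, on the library scaling of the fit over 32 livers, which differs from that of the 16 female livers used above. Dbp had means of 9.73 and 27.03 CPM in male AL and IF livers and of 227 and 242 CPM in female AL and IF livers. Arntl, which peaks at the opposite phase, had 21.3 and 5.53 CPM in males and 1.11 and 0.662 CPM in females. For both genes the female means lay outside the span of the male means. Over the 1133 genes called and at least 2-fold higher in male IF liver that were also tested in females, the female median log2 fold change was 0.078 against 1.35 in males, and over the 1113 at least 2-fold lower it was -0.15 against -1.40. Over all 15429 genes tested in both the medians were -0.0079 in females and 0.050 in males. The estimates had the same sign in both sexes for 62.0% of the risen and 71.1% of the fallen genes, against 57.4% of all, and 6.35% and 9.61% had an unadjusted p under 0.05 in females, against 5.85%. These genes were chosen by the male result, are not independent of each other and carry no test. The mean log2 CPM in female livers of the male-called genes in the 32-liver fit, 2.12 to 2.60 in AL and 2.22 to 2.62 in IF for the risen genes, lay between the male AL range of 1.80 to 2.03 and the male IF range of 3.30 to 3.60, with the female diets overlapping. Choosing genes by the male contrast sets the male groups apart, so nothing is read from the position between them.

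**Figure D4:**
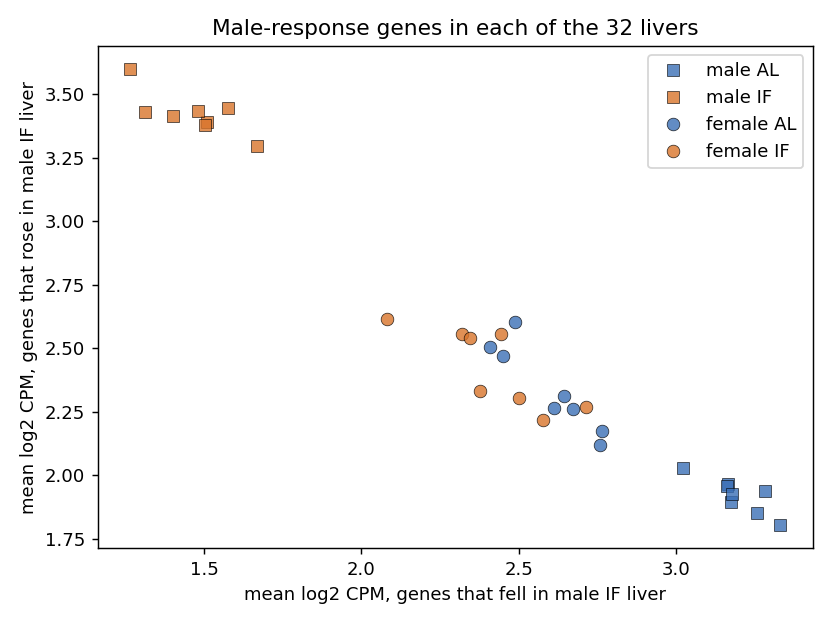
Mean log2 CPM per liver of genes that rose (vertical axis) against genes that fell (horizontal axis) in male IF liver, with squares for male and circles for female mice, blue for AL and orange for IF. The female livers of both diets overlap and lie between the male groups, from 2.12 to 2.62 on the vertical axis. The genes were chosen by the difference between these male groups, which sets those groups apart. Nothing is read from the position between them.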

How the data were processed

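RNA-seq gene counts of 16 female livers were analysed, with 80 further libraries of the series present in the same table. The deposited count table holds raw read counts per gene, made by the authors with HISAT2 alignment to mm39 and featureCounts; whether the counting used strand is not given in the sources used here. Groups came from the labels. Genes passing filterByExpr (minimum count 10, minimum total 15) were scaled by TMM and tested with edgeR 4.0.16 (robust quasi-likelihood, Benjamini-Hochberg, threshold 0.05) in R 4.3.3; the method was tested on simulated data. Intervals of 95% used the quasi-likelihood standard error. Log2 CPM used a prior count of 2, and TPM the table's gene lengths. Single values were tested by exact permutation. Alternatives were RLE scaling, DESeq2 1.42.0, other filters and call rules, a replicate block, an erythrocyte covariate, 1 fit over 32 livers, each library left out and, added after seeing the data, limma 3.58.1 voom with sample weights. Named genes were key members of pathway lists, the 10 highest by TPM, the 10 with the largest SD, the 10 with the smallest interaction p and, chosen after seeing the data, the 10 with the smallest diet p and the 4 without overlap; the rule's genes of largest change required a call and gave none. The members and lists were chosen with earlier results of these data known. Some named genes are not reported here.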

Additional observations from a re-analysis of the deposited data

Results flagged for a closer look

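In 27 of 262 tests, over 131 named genes reported here in each diet, 1 liver stood apart from the other 7 by Dixon's criterion on log2 CPM, which chance meets in about 1 of 20 groups. Of these genes 10 were named for their large spread and gave 6 of 20, so nothing is read from the count against that rate. AL mouse 28 stood apart in Per1 (lowest, 18.6 CPM), Cry2 (lowest, 31.3 CPM), Scd1 (lowest, 373 CPM), Hmgcs1 (lowest, 257 CPM), Insig1 (lowest, 93.6 CPM), Saa1 (highest, 232 CPM), Saa2 (highest, 199 CPM), Lcn2 (highest, 84.2 CPM) and Cyp2b13 (lowest, 67.4 CPM). IF mouse 34 stood apart in Cyp2b9 (lowest, 203 CPM), Cyp2b13 (lowest, 120.4 CPM), Cux2 (lowest, 16.1 CPM), Mup19 (lowest, 0.462 CPM), Mup12 (lowest, 0.492 CPM), Mup15 (lowest, 0.215 CPM), Mup22 (lowest, 93.7 CPM), Mup-ps14 (lowest, 0.0615 CPM) and Mup-ps10 (lowest, 0.154 CPM). IF mouse 37 stood apart in Ppp1r3c (lowest, 4.79 CPM), Insig2 (lowest, 14.1 CPM), Alas1 (highest, 1986 CPM) and Nampt (highest, 131 CPM). AL mouse 26 stood apart in Rora (highest, 37.3 CPM). AL mouse 29 stood apart in G6pc (highest, 317 CPM). AL mouse 30 stood apart in Gm4756 (lowest, 51.0 CPM). AL mouse 31 stood apart in Larp4b (highest, 184 CPM). IF mouse 38 stood apart in Lrrcc1 (lowest, 0.807 CPM).

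The response to fasting differed between female and male livers for 69 of 131 named genes reported here, by an adjusted p under 0.05 for the interaction in edgeR; each value is the log2 fold change in females minus that in males. Of these genes 7 were named for a small interaction p alone, which fixed their part of the count, and nothing is read from the count against all genes. The female response was above the male one for Arntl (1.18), Nr1d1 (1.69), Pklr (1.73), Ppp1r3c (1.34), Srebf1 (1.03), Fasn (2.36), Acaca (0.65), Acly (1.71), Scd1 (1.43) and Elovl6 (1.38). The same held for Thrsp (1.79), Srebf2 (0.85), Hmgcs1 (2.95), Sqle (2.51), Insig1 (1.44), Cyp7a1 (1.21), Nr0b2 (1.10), Atf4 (0.71), Hspa5 (0.94) and Tfrc (0.57). The same held for Cyp2b13 (4.49), Hao2 (2.47), Hsd3b5 (1.73), mt-Cytb (0.87), mt-Nd1 (0.82), mt-Nd2 (1.06), mt-Nd4 (0.94), Apoc1 (0.54), Apoa1 (0.83) and Mup-ps14 (5.85). The same held for Chrna4 (2.93), Pter (2.37), Gm4756 (1.98), C9 (2.33), Slc33a1 (1.49), Vasn (1.07) and Rpl17-ps3 (0.60). A response above the male one need not be a rise in females. In the fit of 16 female livers Cyp2b13 had -0.069 and Mup-ps14 -0.77 (-0.57 without IF mouse 34). Hsd3b5 had only 1 to 44 counts per female liver, so its value is uncertain. The female response was below the male one for Per1 (-3.95), Per2 (-1.23), Per3 (-2.14), Nr1d2 (-0.91), Dbp (-1.39), Tef (-1.48), Bhlhe40 (-1.65), Usp2 (-4.38), Pck1 (-0.91) and Pcx (-0.53). The same held for Ppp1r3g (-7.37), Cpt1a (-1.24), Ppara (-1.23), Pdk4 (-1.95), Angptl4 (-2.48), Cyp4a10 (-1.58), Cyp4a14 (-4.14), Plin2 (-1.05), Cyp7b1 (-0.995) and Trib3 (-1.38). The same held for Fkbp5 (-1.96), Mt1 (-4.00), Saa2 (-3.02), Igfbp2 (-1.51), Cyp2e1 (-1.51), Por (-2.78), Alas1 (-1.54), Nampt (-1.69), Apoe (-0.63) and Ctsf (-1.66). The same held for Ces1d (-2.47) and Gnl1 (-1.29).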

How the results depend on the processing

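The count of 0 genes by edgeR held with RLE scaling, no filter, at least 10 counts in every library and a 2-fold rule. It also held with an erythrocyte covariate, 1 fit over 32 livers and each of the 16 libraries left out. By limma-voom with sample weights (chosen after seeing the data) the count was 0 as well. DESeq2 called 8 genes, 6 higher and 2 lower, and an unadjusted p under 0.05 took in 919 genes, 420 higher and 499 lower. At that unadjusted threshold the count was 911 with RLE, 1307 by DESeq2, 820 with the stricter filter, 1037 in the joint fit, 900 with the covariate, 1379 by limma-voom and from 703 to 1242 with 1 library left out. Without a filter it was 4184 of 29046 genes, of which 3239 had a mean under 3 counts, and 847 were among the genes of the main test. AL and IF mice with the same replicate number are different animals. Deviations of same-numbered pairs correlated from -0.18 to 0.11, and 2 of 8 AL libraries correlated best with their own number. The replicate block gave 0 called genes and 806 at an unadjusted p under 0.05, and 3692 in the interaction. The interaction count was 4188 with RLE, 4556 by DESeq2 and 3147 with the covariate. The difference in spread passed 0.05 with the 500 most variable genes (4.24) and with a prior count of 0.5 (9.74); the cause was not tested. Separation of the diets and the 13 marker lists stayed on the same side of the threshold under each alternative tried, with a smallest adjusted p over the marker lists of 0.113 to 0.998 with 1 library left out, an alternative added after seeing the data. The Y-linked list had 0 counts in all 16 libraries, so its result was fixed in advance. Of 140 named genes, none called by edgeR, the estimate changed sign for 28 under another setting and for 42 without 1 library, among them G6pc, Cyp4a14, Srebf1, Hmgcs1, Hamp, Cyp2b9 and Cyp2b13. No list of the 52 held a called gene under any alternative, and the median changed sign for 5 with RLE, 6 with DESeq2, 10 with the replicate block, 10 with limma-voom and 4 to 12 with 1 library left out, most without AL mouse 28. Neutrophil genes went from -0.19 to 0.17 with limma-voom and 0.51 without mouse 28. Depth may limit genes of low CPM, but this was not tested, and the width of intervals was not compared between levels.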
